A study of Mus musculus with 8 samples.

Results

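Dppa2, Dppa3, Dppa4 and Dppa5a, 4 of the developmental pluripotency associated genes, were followed across 8 RNA sequencing libraries of mouse embryonic stem (ES) cells. They were chosen by name and not by their values, though earlier results of these data were known. They are 4 of the 47729 gene identifiers counted in each library. All cells were of the E14TG2a line from strain 129/Ola and had been grown for 48 h in medium containing 15% serum and LIF, the cytokine that holds mouse ES cells in an undifferentiated state. The study asked what the TCF/LEF factors, the DNA-binding partners of beta-catenin in Wnt signalling, contribute to these cells. QT7 cells were QKO cells rescued with a single copy of TCF7, QT7L1 cells were QKO cells rescued with a single copy of TCF7L1, QKO cells lacked all full-length TCF/LEF factors (genotype TCF7(-/-), TCF7L1(-/-), TCF7L2(-/-), LEF1(-/-)), and WT cells were unmodified E14TG2a. Each group had 2 libraries. The 2 libraries of QT7, of QT7L1 and of QKO are labelled as clones A and B, so that the spread within those groups is the spread between 2 clones, while the 2 WT libraries are labelled as biological replicates.

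The genotype labels of the rescued lines go against their titles: the QT7 libraries carry TCF7L1(+/-) and the QT7L1 libraries TCF7(+/-). The names used here follow the titles and the design text, and the direction of each statement about QT7 or QT7L1 rests on them. Gene-level counts of the TCF/LEF genes did not settle the matter. Tcf7 ranged from 16.6 to 20.9 counts per 1e+06 counts (CPM, scaled by TMM) in QT7, from 10.1 to 12.7 CPM in QT7L1, from 7.97 to 19.7 CPM in QKO and from 59.6 to 61.9 CPM in WT. Tcf7l1 ranged from 22.4 to 27.4 CPM in QT7, from 27.5 to 36.9 CPM in QT7L1, from 38.3 to 39.1 CPM in QKO and from 68.8 to 73.6 CPM in WT. Lef1 ranged from 0.92 to 1.33 CPM in QT7, from 0.212 to 0.213 CPM in QT7L1, from 0.804 to 0.9 CPM in QKO and from 2.4 to 6.57 CPM in WT, and Tcf7l2 from 5.27 to 5.84 CPM in QT7, from 4.72 to 5.51 CPM in QT7L1, from 7.32 to 7.4 CPM in QKO and from 6.53 to 8.14 CPM in WT. Of these 4 genes, 3 (Tcf7, Tcf7l1 and Lef1) were called lower than WT by edgeR in QT7, where 4.62% of all genes tested were called, in QT7L1 (0.745%) and in QKO (26.4%). With each of the 8 libraries left out in turn, Tcf7 kept its call in 2 of 8 fits for QT7, 2 for QT7L1 and 7 for QKO, Lef1 in 1, 6 and 7, and Tcf7l1 in 8, 5 and 8. A gene-level count includes transcripts that give no full-length protein. Library totals ran from 31573536 to 43362627 counts. Summed CPM of 8 ES cell markers lay between 4644.7 and 5440.9 in the 8 libraries, and all 8 markers were detected in each.

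The 4 genes share a name, given for a common pattern of expression in pluripotent cells, but not a protein family. DPPA2 and DPPA4 carry a SAP domain, bind DNA and chromatin as a pair, and are known in mouse ES cells for keeping developmental promoters open to activation and for switching on genes of the 2-cell embryo. DPPA3, also called Stella or PGC7, is a maternal and germ cell protein that protects DNA from methylation by holding UHRF1 away from chromatin, and in serum cultures it is made by a fraction of ES cells. DPPA5A, also called ESG1, is a small KH-domain protein that binds RNA and is abundant in ES cells.

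On build GRCm38 (annotation GENCODE M21), Dppa4 (ENSMUSG00000058550) lies at chr16:48283733-48294237 and Dppa2 (ENSMUSG00000072419) at chr16:48303908-48319723, both on the plus strand and 9.7 kb apart. Dppa3 (ENSMUSG00000046323) lies at chr6:122626410-122630272 on the plus strand, 77.2 kb from Nanog. Dppa5a (ENSMUSG00000060461) lies at chr9:78367052-78368177 on the minus strand. All 4 passed the filter on low counts.

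These genes have many pseudogene copies in the mouse genome, and a read that fits 2 places can be lost or assigned to the wrong one in gene counting. Copies that carry the Dppa5 or Dppa3 name are shown as examples of how like a member such a copy can be. Other copies, such as Gm15310 and Gm6798 of Dppa5a and those of Dppa2 and Dppa4, were not aligned. The first 3 sequences are bases 1 to 100 of the Dppa5a coding sequence with the matching bases of the pseudogenes Dppa5b and Dppa5c, and the last 2 are bases 3 to 102 of the Dppa3 coding sequence with those of the pseudogene Dppa3-ps on chromosome X. All are given 5′ to 3′ as they stand in the GENCODE M21 transcripts, and capitals mark the bases at which member and copy differ.
Dppa5a: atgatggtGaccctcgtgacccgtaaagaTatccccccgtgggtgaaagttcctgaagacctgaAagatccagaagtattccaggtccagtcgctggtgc
Dppa5b: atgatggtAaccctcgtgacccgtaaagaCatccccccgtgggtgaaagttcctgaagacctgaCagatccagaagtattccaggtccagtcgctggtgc
Dppa5c: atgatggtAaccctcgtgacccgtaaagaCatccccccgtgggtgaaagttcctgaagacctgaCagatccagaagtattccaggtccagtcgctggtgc
Dppa3: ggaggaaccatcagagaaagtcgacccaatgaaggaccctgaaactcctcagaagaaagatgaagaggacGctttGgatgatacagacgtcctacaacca
Dppa3-ps: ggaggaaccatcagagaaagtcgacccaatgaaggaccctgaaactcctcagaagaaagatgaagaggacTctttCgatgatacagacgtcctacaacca

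Dppa5a differed from Dppa5b and from Dppa5c at 3 of these 100 bases, and Dppa3 from Dppa3-ps at 2 of 100. Over the whole aligned length, Dppa5b and Dppa5c each matched Dppa5a at 288 of 297 bases (97.0%), and Dppa3-ps matched Dppa3 at 443 of 451 bases (98.2%). Of all 50-base windows of the transcript, 29.1% in Dppa2, 35.9% in Dppa4, 17.7% in Dppa3 and 38.6% in Dppa5a also occurred in the transcript of another gene. With 100-base windows the shares were 23.9% in Dppa2, 16.8% in Dppa4, 0.0% in Dppa3 and 3.1% in Dppa5a. Neither read length nor the handling of reads with several matches is given in the sources used here, and the counts of all 4 genes may be too low by an unknown part. Dppa5b and Dppa5c were not among the 47729 gene identifiers counted, so they have no counts here. The copies that were counted took up little. They held 0.404 to 0.96% of the counts of Dppa2 and its copies, 1.255 to 2.029% for Dppa4, 0.0 to 0.96% for Dppa3 and 0.46 to 0.619% for Dppa5a, over the 8 libraries. Dppa3-ps itself had 0 counts in all 6 QT7, QT7L1 and QKO libraries, and 3 and 5 counts in WT. Dppa1, the other protein-coding gene of the name, had 0 counts in all 8 libraries.

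Across the 4 groups the 4 genes differed in their courses, shown in the plot of levels by library. Dppa2 was higher in QKO cells than in all 3 other groups and close to WT in both rescued lines. Dppa3 lay below WT in every library of the 3 modified lines, and Dppa5a had its highest mean in QT7L1. Dppa4 passed the test in no comparison.

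**Figure D1:**
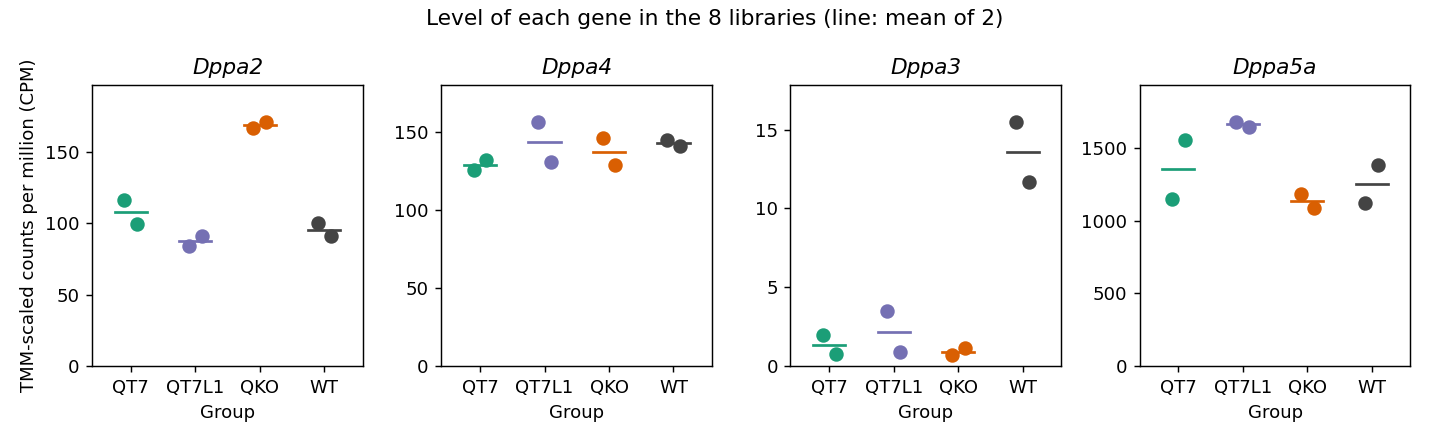
TMM-scaled CPM (y axis, from 0, with its own range in each panel) of Dppa2, Dppa4, Dppa3 and Dppa5a in the 2 libraries of QT7, QT7L1, QKO and WT. Points are libraries and lines are group means; the 2 QKO points of Dppa2 lie above all others, at 167.1 and 171.3 CPM, and the 2 WT points of Dppa3 lie above all others, at 11.7 and 15.5 CPM.

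Dppa5a was the most abundant of the 4 by a wide margin. Per kilobase of exon, its level averaged 2182.9 ± 463.8 CPM per kb in QT7, 2682.9 ± 43.0 in QT7L1, 1833.3 ± 116.4 in QKO and 2020.3 ± 297.8 in WT (SD, n = 2 each). On the same scale Dppa4 averaged 77.4 ± 2.64 CPM per kb in QT7, 86.5 ± 11.1 in QT7L1, 82.6 ± 7.36 in QKO and 86.2 ± 1.61 in WT (SD, n = 2 each). Dppa2 averaged 44.2 ± 4.88 CPM per kb in QT7, 35.8 ± 1.88 in QT7L1, 69.1 ± 1.23 in QKO and 39.1 ± 2.7 in WT (SD, n = 2 each), so that it stood below Dppa4 in every group. Dppa3 was lowest throughout, at 1.53 ± 0.956 CPM per kb in QT7, 2.46 ± 2.04 in QT7L1, 1.02 ± 0.36 in QKO and 15.2 ± 2.98 in WT (SD, n = 2 each). Ranked by CPM among all genes counted, Dppa5a stood between place 34 and place 83 in the 8 libraries, while Dppa3 stood between place 8006 and place 13714.

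Dppa2, the SAP-domain partner of Dppa4, had 116.6 and 99.7 CPM in QT7, 84.4 and 90.9 CPM in QT7L1, 167.1 and 171.3 CPM in QKO, and 100.4 and 91.0 CPM in WT. Both QKO clones lay above all 6 other libraries, and the QT7 and WT libraries overlapped. Dppa2 was 1.77-fold higher in QKO than in WT (log2 fold change 0.82 ± 0.11 SE, 95% interval 0.59 to 1.06, adjusted p = 0.00116, edgeR quasi-likelihood test with Benjamini-Hochberg adjustment over 16515 genes). In this comparison 26.4% of all genes tested passed an adjusted p of 0.05, and 2 of the 4 Dppa genes passed, Dppa2 higher and Dppa3 lower. With 2 libraries a group and 26.4% of genes called, a count of 2 among 4 says little about the 4 as a set. In bulk RNA, fewer cells that make a transcript and less of it per cell cannot be told apart.

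Each rescue brought Dppa2 back near the WT level. Against QKO, the log2 fold change of Dppa2 was -0.65 ± 0.11 (SE, adjusted p = 0.00272, edgeR) in QT7, where 26.9% of genes were called and Dppa2 was the only one of the 4 among them. In QT7L1 it was -0.95 ± 0.11 (SE, adjusted p = 0.000802, edgeR), where 29.7% of genes were called and Dppa2 and Dppa5a were the 2 among the 4. These 2 comparisons share the QKO libraries with each other and with the comparison of QKO against WT, so their directions are not independent of one another. Against WT, Dppa2 differed by 0.18 on the log2 scale in QT7 (95% interval -0.06 to 0.41, adjusted p = 0.4, edgeR) and by -0.13 in QT7L1 (95% interval -0.36 to 0.11, adjusted p = 0.622, edgeR). These intervals leave room for a rise of up to 0.41 in QT7 and a fall of up to 0.36 in QT7L1. In order of mean level, QKO stood above QT7 beyond the spread between libraries, and the neighbours QT7 and WT, and WT and QT7L1, did not differ beyond it.

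The 3 calls of Dppa2 held when single libraries were removed. With each of the 8 libraries left out in turn, the log2 fold change stayed between 0.75 and 0.89 in QKO against WT, between -0.75 and -0.53 in QT7 against QKO and between -1.0 and -0.89 in QT7L1 against QKO, and each of these fits called it, with adjusted p-values of at most 0.0164, 0.0303 and 0.0118 in that order. The authors' deposited table has Dppa2 at a log2 value of -0.8 with a standard error of 0.12 for WT over QKO, which is the opposite order of groups and so the same direction.

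Dppa4, which acts with Dppa2 and lies next to it, had 125.6 and 131.8 CPM in QT7, 156.7 and 130.7 CPM in QT7L1, 146.0 and 128.7 CPM in QKO, and 145.1 and 141.3 CPM in WT. The libraries of QT7L1, QKO and WT overlapped, and both QT7 libraries lay below both WT libraries. None of its 6 comparisons was called by edgeR's quasi-likelihood test, none had an unadjusted p under 0.05, and DESeq2 called none. In QKO against WT its log2 fold change was -0.06 ± 0.11 (SE, 95% interval -0.31 to 0.18), and over the 6 comparisons the estimates lay between -0.16 and 0.07. The widest bounds of those intervals were -0.41 and 0.31, so that changes of the size seen for Dppa2 between QKO and WT lay outside them.

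Because both genes are counted in the same library, their ratio does not depend on the scaling between libraries. The counts of Dppa2 over those of Dppa4 were 0.929 and 0.757 in QT7, 0.539 and 0.695 in QT7L1, 1.14 and 1.33 in QKO, and 0.692 and 0.644 in WT. Only in the 2 QKO clones did Dppa2 have more counts than Dppa4 among these 8 libraries, and the ratios of QT7L1 and WT overlapped. With exon length taken into account the ratio was 0.777 and 0.904 in QKO, against 0.47 and 0.437 in WT. No test of this ratio was made.

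**Figure D2:**
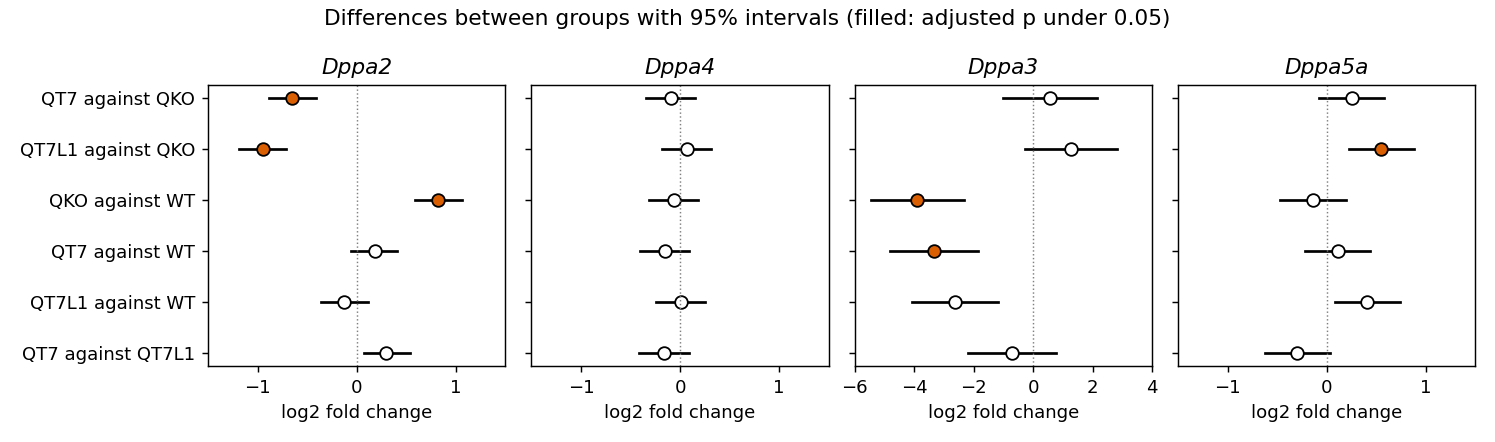
Log2 fold changes (x axis, with a wider range for Dppa3) of Dppa2, Dppa4, Dppa3 and Dppa5a in the 6 comparisons of groups (rows), with 95% intervals as lines. Filled points have an adjusted p under 0.05 by edgeR: 3 for Dppa2, none for Dppa4, 2 for Dppa3 and 1 for Dppa5a.

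Dppa3, the germ cell and maternal factor that guards against DNA methylation, had 1.97 and 0.759 CPM in QT7, 3.48 and 0.914 CPM in QT7L1, 0.683 and 1.14 CPM in QKO, and 15.5 and 11.7 CPM in WT. The counts behind these values were 77 and 33 in QT7, 115 and 30 in QT7L1, 22 and 41 in QKO, and 494 and 516 in WT. All 6 libraries of the modified lines lay below both WT libraries, and QT7, QT7L1 and QKO overlapped each other. The exact Poisson interval of the lowest count, 22 in the first QKO clone, was 13.8 to 33.3 (95%), which covers counting error only. Dppa3 was 14.8-fold lower in QKO than in WT (log2 fold change -3.89 ± 0.67 SE, 95% interval -5.45 to -2.33, adjusted p = 0.00636, edgeR). This call was lost without QKO replicate 1 (log2 fold change -3.58, adjusted p = 0.0597) and without QKO replicate 2 (-4.31, adjusted p = 0.0567), and the 8 fits with 1 library left out gave adjusted p-values of 0.0032 to 0.0597.

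Neither rescue raised Dppa3 above QKO by the test. In QT7 against QKO its log2 fold change was 0.56 ± 0.68 (SE, adjusted p = 0.583, edgeR) and in QT7L1 against QKO 1.26 ± 0.67 (SE, adjusted p = 0.194, edgeR). The 95% intervals of these differences, -1.02 to 2.14 and -0.29 to 2.82, include no change and rises of several fold, so a partial return was not resolved at this depth and number of clones. The QT7L1 value rested on 1 clone: it was 0.0081 without QT7L1 replicate 1 (adjusted p = 0.995, edgeR) and 1.93 without QT7L1 replicate 2 (adjusted p = 0.0528, edgeR). The clones differed from each other: within QT7L1, clone A had 3.81 times the CPM of clone B, and within QT7, clone A had 2.59 times that of clone B. The same ratio of the higher to the lower library was 1.32 in WT and 1.66 in QKO.

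Set against WT, Dppa3 was lower in QT7 (log2 fold change -3.32 ± 0.64 SE, adjusted p = 0.0339, edgeR), and it was the only one of the 4 genes called there, where 4.62% of all genes were. That call was lost in 6 of the 8 fits with 1 library left out: without WT replicate 1 or 2, without QKO replicate 1 or 2 and without QT7 replicate 1 or 2, with adjusted p-values of 0.0562 to 0.189, although the log2 fold change stayed between -4.15 and -2.78 in all 8. In QT7L1 against WT the level was 6.16-fold below WT (log2 fold change -2.62 ± 0.62 SE) and did not pass edgeR's test (adjusted p = 0.115), which called 0 of the 4 genes in that comparison and 0.745% of all genes. At an unadjusted p under 0.05 there were 2 of the 4, Dppa3 and Dppa5a. DESeq2 called 1 of the 4, Dppa3 (adjusted p = 0.0361), edgeR without a filter on low counts also called it, and the authors' deposited table gives Dppa3 a padj of 0.00913 for WT against QT7L1. Over the 8 fits with 1 library left out, edgeR's adjusted p for Dppa3 in QT7L1 against WT ran from 0.0604 to 0.536, and its log2 fold change was -3.88 without QT7L1 replicate 1 and -1.96 without QT7L1 replicate 2. A call in QT7 and none in QT7L1 does not show a difference between them. For Dppa3, QT7 against QT7L1 gave -0.7 ± 0.64 (SE, 95% interval -2.18 to 0.78, adjusted p = 0.713, edgeR), which leaves a difference unresolved. For WT over QKO, QT7 and QT7L1, the authors' deposited table has Dppa3 at log2 values of 1.52, 1.4 and 1.2, in the opposite order of groups and smaller in size than -3.89, -3.32 and -2.62 here. By mean level the order was WT, QT7L1, QT7 and QKO, and no neighbours in it differed by edgeR's test.

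Markers of cells that could contribute or dilute Dppa3 transcripts were summed in each library. Late germ cell markers (4 genes, all detected in every library) summed to 76.1 and 67.1 CPM in QT7, 53.5 and 74.2 in QT7L1, 63.3 and 51.7 in QKO and 43.8 and 53.6 in WT, and their part in the results was not tested. Among them Sycp3, a gene of the synaptonemal complex, had 14.0 and 13.9 CPM in QT7, 13.0 and 23.1 in QT7L1, 6.33 and 5.49 in QKO and 16.8 and 14.9 in WT. Sycp3 was lower in QKO than in WT by -1.42 ± 0.25 (SE, adjusted p = 0.00393, edgeR), the direction of Dppa3. Mael and Dazl took the opposite direction. Mael had 11.2 and 12.4 CPM in QKO and 3.51 and 6.35 in WT, and Dazl 12.4 and 8.98 in QKO and 2.79 and 4.56 in WT. For QKO against WT, edgeR called 1 of the 4 markers up and 1 down. Their median log2 fold change was 0.75, beside -0.01 over all genes. Primitive endoderm markers (8 genes, all detected) summed to 241.1 and 185.3 CPM in QT7, 165.0 and 170.0 in QT7L1, 134.0 and 173.2 in QKO and 208.5 and 321.6 in WT. The 2 WT sums exceeded both QKO sums, but most of each was Lamb1, at 172.2 and 234.5 CPM in WT and 94.2 and 120.2 in QKO. For no other marker of the list did both WT libraries exceed both QKO libraries. Sox7 had 5.54 and 11.6 CPM in WT and 11.7 and 16.7 in QKO. The part of such cells in the difference of Dppa3 was not tested. Fibroblast markers (12 genes, of which 1 to 5 were at 0) summed to 69.2 and 107.0 CPM in QT7, 59.8 and 77.0 in QT7L1, 153.1 and 59.4 in QKO and 129.1 and 88.5 in WT, and trophoblast markers (6 genes, of which at most 1 was at 0) to 63.8 and 48.0 CPM in QT7, 60.4 and 39.6 in QT7L1, 34.5 and 32.4 in QKO and 54.2 and 43.9 in WT. The trophoblast sum was lower in both QKO libraries than in both WT libraries, and more than any other gene Tfap2c made it up. Tfap2c had 38.5 and 31.6 CPM in WT and 19.5 and 17.5 in QKO, and Ascl2 and Hand1 were also lower in QKO. Cdx2 and Eomes went the other way, Eomes with 6.35 and 4.65 CPM in WT and 8.53 and 8.04 in QKO. The part of such cells in the results was not tested.

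Dppa5a, the KH-domain RNA-binding gene, had 1148.2 and 1554.2 CPM in QT7, 1679.5 and 1641.9 CPM in QT7L1, 1185.8 and 1083.9 CPM in QKO, and 1120.2 and 1380.9 CPM in WT. Both QT7L1 clones lay above all other libraries, while QT7, QKO and WT overlapped. It was 1.46-fold higher in QT7L1 than in QKO (log2 fold change 0.55 ± 0.15 SE, 95% interval 0.22 to 0.88, adjusted p = 0.0205, edgeR), its only call in 6 comparisons. This call was lost without QKO replicate 1 or 2 and without QT7L1 replicate 1 or 2, where adjusted p-values lay between 0.0585 and 0.131, while the log2 fold change stayed between 0.49 and 0.62. Against WT, the QT7L1 value was 0.41 ± 0.15 (SE, adjusted p = 0.224, edgeR). In QKO against WT it was -0.14 ± 0.15 (SE, 95% interval -0.47 to 0.19, adjusted p = 0.514, edgeR).

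Between the rescued lines, QT7 against QT7L1, edgeR's quasi-likelihood test called 0 of the 4 genes and 0.00606% of all genes, a single gene. At an unadjusted p under 0.05 there was 1 of the 4, Dppa2, with a log2 fold change of 0.3 ± 0.11 (SE, 95% interval 0.07 to 0.54, adjusted p = 0.351, edgeR), and DESeq2 called 0. Both QT7 libraries lay above both QT7L1 libraries for Dppa2 and below them for Dppa5a, which differed by -0.3 ± 0.15 (SE, adjusted p = 0.49, edgeR). Without QT7 replicate 2 edgeR called both, Dppa2 at 0.41 (adjusted p = 0.0487) and Dppa5a at -0.54 (adjusted p = 0.0308), and over the 8 such fits the adjusted p-values of both ran up to 1.0.

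The genes next to the 4 did not move as blocks. Of the nearest protein-coding genes on each side, 13 were tested, and in QKO against WT 5 of them were higher and 4 lower, beside 26.4% of all genes called. Morc1, a germline repressor of transposons 111.5 kb beyond Dppa2, had 207.3 and 125.0 CPM in QT7, 86.5 and 81.3 CPM in QT7L1, 162.6 and 167.4 CPM in QKO, and 56.8 and 45.9 CPM in WT. Its log2 fold change in QKO against WT was 1.69 ± 0.21 (SE, adjusted p = 0.00175, edgeR), so that it was higher in QKO, as Dppa2 was and Dppa4, on the far side of Dppa2, was not called to be. In QT7 against QKO Morc1 differed by 0.01 ± 0.21 (SE, adjusted p = 0.98), where Dppa2 was lower, and in QT7L1 against QKO it was lower by -0.98 ± 0.21 (SE, adjusted p = 0.0107, edgeR), a call that was lost without either QKO or either QT7L1 library. The next gene on the other side, Nectin3, a cell adhesion gene 1785.2 kb from Dppa4, was lower in QKO than in WT by -0.57 ± 0.16 (SE, adjusted p = 0.0242, edgeR), a call lost without either QKO or either WT library.

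Around Dppa3, directions differed from gene to gene. Nanog, which encodes a core pluripotency factor, had 582.9 and 504.1 CPM in QT7, 440.5 and 445.3 in QT7L1, 623.8 and 565.6 in QKO and 307.5 and 287.6 in WT. All 6 libraries of the modified lines lay above WT for Nanog and below WT for Dppa3, and in QKO against WT Nanog was higher, with a log2 fold change of 1.0 ± 0.1 (SE, adjusted p = 0.000615, edgeR). Slc2a3, the glucose transporter gene beyond it, was lower in QKO than in WT by -1.15 ± 0.11 (SE, adjusted p = 0.000598, edgeR) and higher in both rescued lines than in QKO, by 1.06 ± 0.11 in QT7 (adjusted p = 0.000769) and 1.14 ± 0.11 in QT7L1 (adjusted p = 0.000653). Apobec1, a cytidine deaminase gene 23966 bases from Dppa3 on its other side, took the same course, at -0.81 ± 0.15 in QKO against WT (SE, adjusted p = 0.00524, edgeR), 0.84 ± 0.15 in QT7 against QKO (adjusted p = 0.00424) and 0.86 ± 0.15 in QT7L1 against QKO (adjusted p = 0.00346). Against WT, both of these neighbours had log2 fold changes between -0.09 and 0.05 in the rescued lines and no call, while Dppa3, which lies between them, had -3.32 in QT7 and -2.62 in QT7L1. Gdf3, a TGF-beta family gene 16.3 kb from Dppa3, had no call in QKO against WT (0.5 ± 0.17 SE, adjusted p = 0.0565, edgeR).

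Dppa5a lies beside Ooep, a KH-domain gene of the maternal complex of the egg, 7.9 kb away. Ooep had 92.4 and 100.7 CPM in QT7, 93.3 and 87.8 CPM in QT7L1, 77.7 and 68.8 CPM in QKO, and 69.5 and 66.8 CPM in WT. It was higher in QT7 than in QKO by 0.4 ± 0.1 (SE, adjusted p = 0.0181, edgeR) and in QT7L1 than in QKO by 0.31 ± 0.1 (SE, adjusted p = 0.0475, edgeR). The first of these calls was lost without QKO replicate 2 or QT7 replicate 2, and the second without either library of QKO, QT7L1 or WT. Cgas, the cytosolic DNA sensor gene 62.3 kb away, was higher in QKO than in WT by 1.72 ± 0.26 (SE, adjusted p = 0.00224, edgeR), where Dppa5a had no call. Omt2a, Omt2b and Gsta2 on the other side had at most 2 counts in any library and were not tested.

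**Figure D3:**
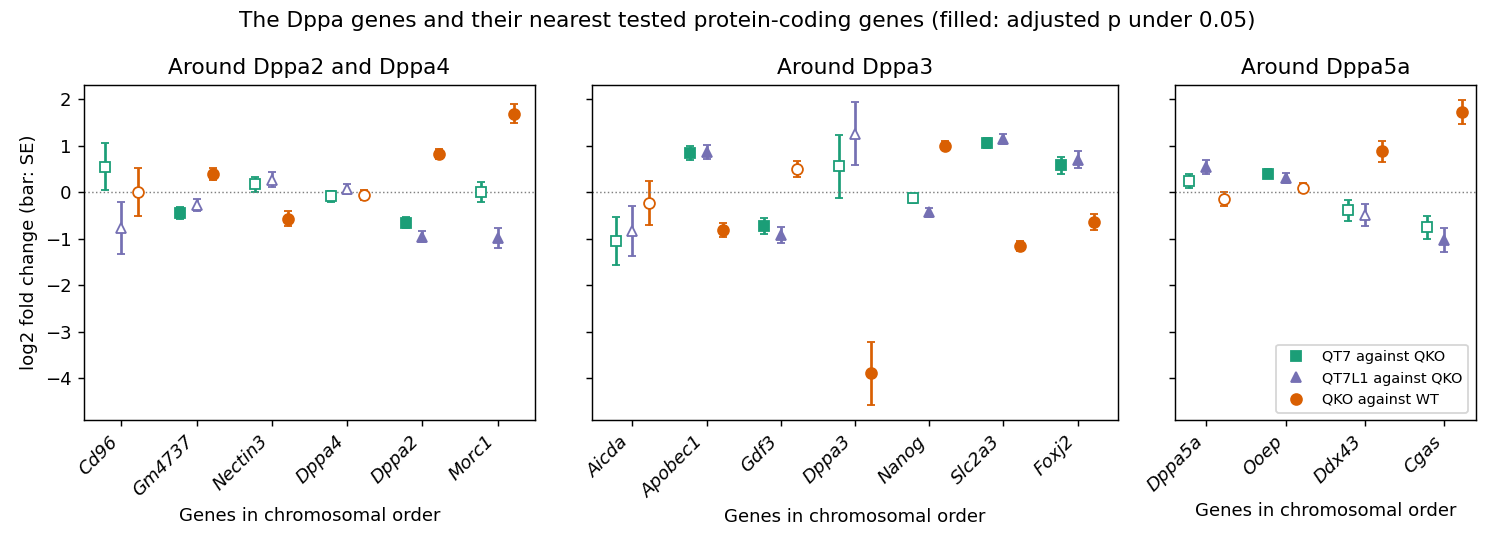
Log2 fold changes with standard errors (y axis) of the Dppa genes and their nearest tested protein-coding genes, in chromosomal order within each panel, for QT7 against QKO, QT7L1 against QKO and QKO against WT. Filled symbols have an adjusted p under 0.05; Dppa4 has none, between Nectin3 and Dppa2, and Dppa3 at -3.89 lies lowest of all in QKO against WT.

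DPPA2 and DPPA4 are known to activate genes of the 2-cell embryo that a small share of mouse ES cells switch on, so a list of 19 such genes was read beside them. Many of the 19 belong to the Zscan4, Usp17l and Tdpoz families of similar copies, so calls of several members are not separate observations. Of the 14 that could be tested, 10 were called higher in QKO than in WT and none lower, beside 26.4% of all genes called. The median log2 fold change was 2.16, beside -0.01 over all genes tested. In QT7L1 against QKO, 13 of 14 were called lower, beside 29.7% of all genes called. The median was -2.96, beside 0.02 over all genes. In QT7 against QKO edgeR called 0 of 14, beside 26.9% of all genes, 0 had an unadjusted p under 0.05, and DESeq2 called 0. The median there was 0.39 (0.94 with the first QKO clone left out, -0.06 with the second left out), beside 0.05 over all genes. Dppa2 itself was lower in both of the last 2 comparisons, and in that respect the list and Dppa2 parted in QT7.

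Summed over the 18 genes of this list in the files, the level was 37.0 and 51.2 CPM in QT7, 4.66 and 3.9 CPM in QT7L1, 47.1 and 22.1 CPM in QKO, and 3.26 and 13.3 CPM in WT. All 4 libraries of QT7 and QKO lay above all 4 of QT7L1 and WT. Against each other, QT7 and QT7L1 gave 0 calls of 14 with edgeR, beside 0.00606% of all genes called. However, 14 of 14 had an unadjusted p under 0.05, and DESeq2 called 10, all higher in QT7. The median log2 fold change was 3.34, beside 0.0 over all genes. EdgeR called 8 of 14 higher in QT7 without QT7 replicate 2, 3 of 15 without WT replicate 1 and 2 of 15 without WT replicate 2. QT7 against WT gave 5 of 14 called higher, beside 4.62% of all genes called, and a median of 2.39 (0.01 over all genes). QT7L1 against WT gave 0 of 14 called with edgeR, beside 0.745% of all genes, 1 at an unadjusted p under 0.05 and 0 with DESeq2. Its median was -0.94 (0.0 over all genes). The last median rested on the WT libraries, at -1.54 without WT replicate 1 and 0.53 without WT replicate 2. Many of these genes are near-identical copies of each other with low counts, so that the values of single members are uncertain.

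Usp17le, a deubiquitinase gene of that list, had 103 and 89 counts in QT7, 10 and 8 in QT7L1, 61 and 50 in QKO, and 6 and 22 in WT. Its log2 fold change was 2.19 ± 0.45 (SE, adjusted p = 0.00693, edgeR) in QKO against WT and -2.57 ± 0.47 (SE, adjusted p = 0.00372, edgeR) in QT7L1 against QKO. Zscan4f, which encodes a zinc finger protein of the 2-cell embryo, had 207 and 313 counts in QT7, 19 and 21 in QT7L1, 165 and 90 in QKO, and 19 and 90 in WT, with a log2 fold change of -2.64 in QT7L1 against QKO (adjusted p = 0.00987, edgeR). That call was lost without QKO replicate 1 and without QT7L1 replicate 1 or 2, with adjusted p-values of up to 0.0738, while the log2 fold change stayed between -3.07 and -2.03. The WT libraries differed more than 4-fold in the summed level, and the counts of calls moved with single libraries. In QKO against WT, 1 of 15 tested was called without QKO replicate 1, 1 of 15 without WT replicate 1, and 6 of 15 without QKO replicate 2 or either QT7L1 replicate. In QT7L1 against QKO the count was 4 of 15 without QKO replicate 1, 3 of 15 without QT7L1 replicate 1 and 2 of 15 without QT7L1 replicate 2. In QT7 against WT it was 0 of 15 without WT replicate 1, 1 of 15 without either QT7L1 replicate, and 3 of 15 without either QKO replicate or QT7 replicate 1. The median log2 fold change stayed between 1.45 and 3.52 in QKO against WT and between -3.33 and -2.39 in QT7L1 against QKO in the 8 such fits.

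A second list held 3 genes whose promoters are known to depend on DPPA2 and DPPA4: Syce1 of the synaptonemal complex, Mael of the germline piRNA pathway, and the heart factor Nkx2-5. Syce1 had 30.0 and 21.2 CPM in QT7, 21.5 and 17.6 CPM in QT7L1, 40.9 and 35.8 CPM in QKO, and 11.7 and 17.0 CPM in WT. Both QKO clones were above all other libraries, as for Dppa2, and Syce1 was higher in QKO than in WT by 1.41 ± 0.22 (SE, adjusted p = 0.00275, edgeR). It was lower in QT7L1 than in QKO by -0.97 ± 0.22 (SE, adjusted p = 0.0102, edgeR), a call lost without QKO replicate 1 or QT7L1 replicate 2. Both QT7 libraries also lay below both QKO libraries for Syce1, without a call by edgeR. Mael had 15.5 and 15.5 CPM in QT7, 9.66 and 10.5 CPM in QT7L1, 11.2 and 12.4 CPM in QKO, and 3.51 and 6.35 CPM in WT, and was higher in QKO than in WT by 1.25 ± 0.25 (SE, adjusted p = 0.00651, edgeR; 0.0533 without QKO replicate 2). Mael had no call in either rescued line against QKO, at 0.4 ± 0.24 in QT7 (adjusted p = 0.246) and -0.22 ± 0.24 in QT7L1 (adjusted p = 0.522). Nkx2-5 had at most 0.64 CPM in any library and was not called. Of the 3 genes, 2 were thus called in QKO against WT, beside 26.4% of all genes, and 1 in QT7L1 against QKO, beside 29.7%. In QT7 against QKO edgeR called 0 of the 3, beside 26.9% of all genes. There 1 of the 3 had an unadjusted p under 0.05 by edgeR, and DESeq2 called 1, lower.

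**Figure D4:**
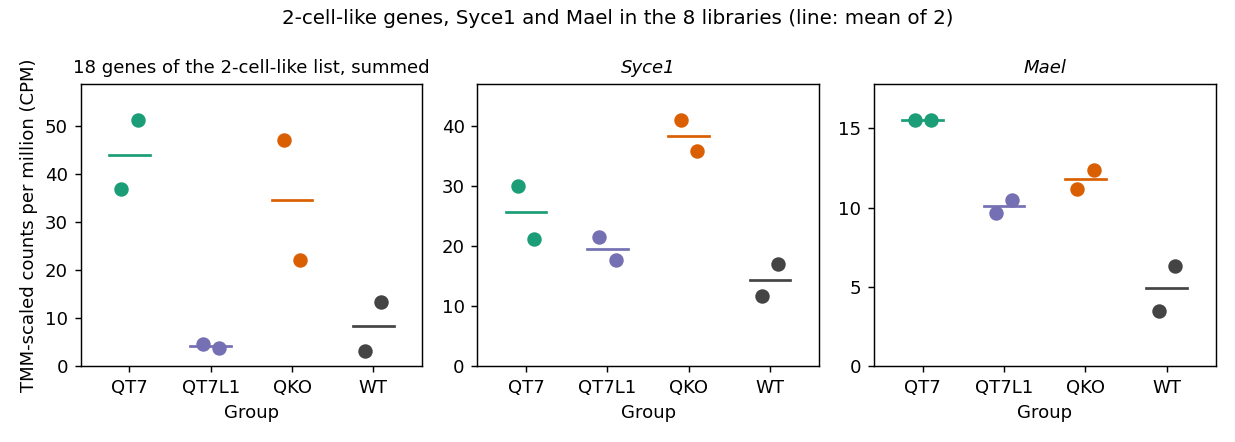
TMM-scaled CPM (y axis, from 0, with its own range in each panel) in QT7, QT7L1, QKO and WT, summed over the 18 counted genes of the 2-cell-like list, and for Syce1 and Mael. Points are libraries and lines are group means; the summed level lay between 22.1 and 51.2 CPM in QT7 and QKO and was 4.66 and 3.9 CPM in QT7L1.

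Around Dppa3, the list of 8 DNA methylation genes held UHRF1, the protein that DPPA3 displaces, the DNA methyltransferases and the TET enzymes. In QKO against WT, 2 were higher and 3 lower, beside 26.4% of all genes called, with a median of -0.02, beside -0.01 over all genes. Uhrf1 was higher by 0.48 ± 0.13 (SE, adjusted p = 0.021, edgeR) and Tet3 lower by -0.83 ± 0.17 (SE, adjusted p = 0.00797, edgeR). Without QKO replicate 2 neither was called, nor was Uhrf1 without WT replicate 1 or 2 or Tet3 without WT replicate 2. Dnmt3b, a de novo methyltransferase, had 151.5 and 139.0 CPM in QT7, 163.3 and 124.6 in QT7L1, 191.4 and 219.6 in QKO, and 334.6 and 261.3 in WT. Like Dppa3 it was below WT in all 6 libraries of the modified lines, but the rescued lines lay below QKO as well, by -0.5 ± 0.15 in QT7 (adjusted p = 0.0385) and -0.51 ± 0.15 in QT7L1 (adjusted p = 0.0329, edgeR). Those 2 calls were lost without either QKO library, the first also without either QT7 library and the second also without QT7L1 replicate 2.

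Primordial germ cell genes, among which Dppa3 is usually counted, were mixed. Of 10 tested, 1 was higher in QKO than in WT and 1 lower, beside 26.4% of all genes called (median 0.13, against -0.01 over all genes). In QT7 against QKO 3 were higher and none lower, beside 26.9% of all genes called (median 0.3, against 0.05), and without QKO replicate 2 none was called. These shares are near or under those of all genes. Prdm14, a regulator of germ cell fate and of naive pluripotency, was higher in QKO than in WT by 0.91 ± 0.19 (SE, adjusted p = 0.00814, edgeR; not called without QKO replicate 1 or WT replicate 2). Prdm1, which encodes BLIMP1, was lower by -2.01 ± 0.58 (SE, adjusted p = 0.0405, edgeR), a call that only 2 of the 8 fits with 1 library left out kept. Prdm1 had 932 and 269 counts in QT7, 199 and 161 in QT7L1, 77 and 115 in QKO, and 401 and 442 in WT. In QT7 the higher value of Prdm1 came from clone A, at 23.8 CPM beside 6.19 CPM in clone B, as for Dppa3. In QT7L1 clone A exceeded clone B by little for Prdm1, at 6.03 and 4.9 CPM, where Dppa3 had 3.48 and 0.914 CPM.

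Beside Dppa5a, a mixed list of 8 KH-domain and maternal complex genes was read, of which 4 could be tested: Khdc3, Ooep, Tle6 and Padi6. Of the 4, 1 was higher and none lower in each of QKO against WT (median 0.41, against -0.01 over all genes), QT7 against QKO (0.37, against 0.05) and QT7L1 against QKO (-0.15, against 0.02). Of all genes 26.4%, 26.9% and 29.7% were called in these 3 comparisons, so that 1 of 4 is near the background. Of 8 transcripts known, like the Dppa genes, for being restricted to ES cells and early embryos, QKO had 2 higher than WT and none lower (median 0.37), 3 lower and none higher in QT7 than in QKO (median -0.26), and 4 lower and none higher in QT7L1 than in QKO (median -0.16), beside the same shares and medians of all genes. In QT7 against QKO none of the 8 was called without QKO replicate 2. The 8 ES cell markers split evenly in QKO against WT, 2 higher and 2 lower, with a median of -0.07, beside 26.4% of all genes called.

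The genes whose log2 CPM ran most closely with each of the 4 over the 8 libraries were sought among 10372 genes. The r-values are descriptions over 8 libraries that share 4 groups, and the choice of the best among 10372 favours high values. Dppa2 ran most closely with Slc4a1ap (r = 0.996), Mars2, a mitochondrial methionyl-tRNA synthetase gene (r = 0.993), and Pole3, a DNA polymerase epsilon subunit gene (r = 0.988). Mars2 had 27.9 and 24.1 CPM in QT7, 19.5 and 21.7 in QT7L1, 37.6 and 39.2 in QKO, and 23.6 and 20.1 in WT. For Dppa3 the nearest were Ptprk (r = 0.97), Pcyox1l (r = 0.967) and Klhl13 (r = 0.963), of which Klhl13 had 27.1 and 25.5 CPM in QT7, 51.2 and 19.3 in QT7L1, 14.9 and 15.5 in QKO, and 111.4 and 108.9 in WT. Klhl13 was picked for its likeness to Dppa3 in these same libraries, so its gap between the 2 QT7L1 clones is no separate observation. Between the 2 QT7 clones it had no such gap, where Dppa3 had 1.97 and 0.759 CPM. Dppa5a ran most closely with Ndufa7, a gene of respiratory complex I (r = 0.988), Mettl22 (r = 0.986) and Mmp17 (r = 0.985). Dppa4 had Ankrd10 (r = 0.938), Nynrin (r = 0.934) and Dmac2 (r = 0.905), and Dppa2 was not among its 3 nearest.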

How the data were processed

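Polyadenylated RNA of 8 libraries, 2 from each of 4 groups, was sequenced after a stranded TruSeq mRNA preparation from 250 ng of total RNA, per the labels' protocols. Per the submitters' processing notes, bcl2fastq 1.8.4, STAR 2.4.0f1 and HTSeq were used, with build mm10 (GRCm38). How HTSeq was set for strand and for reads matching several places is not stated there. The deposited files hold whole-number counts per Ensembl gene. The authors' deposited comparison tables hold log2 fold changes and their errors, a mean normalised signal, a test score and p-values, raw and adjusted, and served for comparison and for gene symbols only.

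The 4 genes were matched by Ensembl identifier and symbol. Genes were kept by filterByExpr (16515), libraries scaled by TMM, and 1 quasi-likelihood fit made with group means as its terms in edgeR 4.0.16 (R 4.3.3, robust dispersion). The 6 pairs of groups were tested 2-sided, p-values adjusted by Benjamini-Hochberg over all 16515 genes within a comparison, and an adjusted p under 0.05 counted as a call. CPM values are TMM-scaled counts per 1e+06. Log2 CPM used a prior count of 2. Levels were compared between genes per kb of exon union (GENCODE M21). Alternatives were RLE scaling, no filter, dispersion without robust fitting, a replicate block, fits of 2 groups only, DESeq2 1.42.0 and each library left out in turn; for the gene lists and the other named genes the last was chosen after seeing the data. Library totals were 31573536 to 43362627 counts, and replicates of a group differed by more than counting noise.

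The 4 genes, the gene lists and the tests were chosen with earlier results of these data known. Genes named besides the 4 followed a rule: the 3 nearest protein-coding genes on each side, the 3 most correlated genes averaging at least 2 in log2 CPM, other genes of the Dppa name, the TCF/LEF genes, and up to 4 called members of a list with the smallest adjusted p. With 2 libraries a group, p-values measure the spread between clones or replicates of these lines.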

Additional observations from a re-analysis of the deposited data

How the results depend on the processing

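Of 336 results for the 4 genes under other settings, 305 kept their direction and their side of the threshold, 11 turned in direction, 12 lost a call and 8 gained one. All 11 turns were of values that had no call. Without a low-count filter, calls were gained by Dppa5a in QT7 against QKO (0.27), Dppa3 in QT7L1 against QKO (1.27), and Dppa3 (-2.62) and Dppa5a (0.41) in QT7L1 against WT; DESeq2 gained Dppa3 in QT7L1 against WT (-2.63). With only the 2 groups compared, Dppa4 in QT7L1 against WT turned to -0.0027. With 1 library left out, ranges for QKO against WT were -0.16 to 0.021 (Dppa4), -4.31 to -3.58 (Dppa3) and -0.28 to 0.019 (Dppa5a); for QT7 against QKO -0.26 to 1.1 (Dppa3) and 0.02 to 0.46 (Dppa5a); for QT7L1 against QKO -0.062 to 0.2 (Dppa4, also -0.019), 0.0081 to 1.93 (Dppa3) and 0.49 to 0.62 (Dppa5a); for QT7 against QT7L1 0.19 to 0.41 (Dppa2), -1.53 to 0.56 (Dppa3) and -0.54 to -0.094 (Dppa5a); for QT7 against WT -4.15 to -2.78 (Dppa3) and -0.12 to 0.32 (Dppa5a, also -0.033); and for QT7L1 against WT -0.13 to 0.13 (Dppa4, also -0.013) and -3.88 to -1.96 (Dppa3).

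The number of all genes called moved widely in some comparisons. In QT7 against QT7L1, 1 gene was called, against 1030 without a filter, 0 without robust dispersion, 20 with only the 2 groups, 2 with the replicate block and 236 with DESeq2. In QT7 against WT, 763 became 2203 without a filter, 117 with only the 2 groups and 1288 with DESeq2. In QT7L1 against WT, 123 became 1248, 614 and 575 under the same 3 settings. With 1 library left out, the counts ran from 1272 to 5497 for QKO against WT, 1432 to 4355 for QT7 against QKO, 1704 to 5971 for QT7L1 against QKO, 0 to 1564 for QT7 against QT7L1, 52 to 2023 for QT7 against WT and 0 to 517 for QT7L1 against WT; the highest counts of QT7 against QT7L1 and against WT came without QT7 replicate 2. The cause was not tested.

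Same-numbered libraries of different groups did not deviate together (r of -0.21 to 0.16 over 16515 genes for the 6 pairs of groups), so the numbers were not taken as pairs. A replicate block changed no call of the 4 genes: Dppa2 was at 0.82 and Dppa3 at -3.81 in QKO against WT. Beyond counting error, 2 clones a group limit what can be resolved, most of all for Dppa3.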

Other observations

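Some parts of the gene lists have not been described above. In QT7 against WT, 3 of 10 primordial germ cell genes were higher and none lower, beside 4.62% of all genes called, with a median log2 fold change of 0.24, beside 0.01 over all genes; none was called without either QT7L1 or either WT library. Kit, the stem cell factor receptor gene, had 112.8 and 74.7 CPM in QT7, 79.5 and 80.7 CPM in QT7L1, 62.5 and 47.1 CPM in QKO, and 39.9 and 49.1 CPM in WT, and was higher in QT7 than in WT, with a log2 fold change of 1.07 ± 0.2 (SE, adjusted p = 0.0272, edgeR quasi-likelihood test with Benjamini-Hochberg adjustment). That call was lost without either QT7L1 or either WT library. Dazl, an RNA-binding gene of germ cells, had 30.9 and 11.1 CPM in QT7, 5.21 and 7.64 CPM in QT7L1, 12.4 and 8.98 CPM in QKO, and 2.79 and 4.56 CPM in WT. Dazl was higher in QT7 than in WT by 2.5 ± 0.5 (SE, adjusted p = 0.038, edgeR), a call that 2 of the 8 fits with 1 library left out kept, and both QT7 clones were above both WT libraries while Dppa3 was below them. Of the 3 genes with promoters known to depend on DPPA2 and DPPA4, 1, Mael, was higher in QT7 than in WT, beside 4.62% of all genes called. Its log2 fold change was 1.64 ± 0.25 (SE, adjusted p = 0.00904, edgeR), and the call was lost without WT replicate 1.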
